A study of Bos taurus with 8 samples.

Results

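The genes that encode the subunits of the proteasome were followed in bovine embryonic stem cells (bESCs) grown on feeder cells and after adaptation to feeder-free culture. They were taken as every row of the count table whose gene symbol begins with PSMA, PSMB, PSMC, PSMD, PSME, PSMF or PSMG and ends in a number, without PSMB8, PSMB9 and PSMB10, which form the immunoproteasome. The rule gave 45 genes of 32637 with values, and 43 of them were among the 15744 genes with enough counts to be tested. The rule selects by symbol, so it takes in assembly chaperones, caps and an inhibitor and leaves out the subunits ADRM1 and SEM1. The rule uses no expression value, though this gene set was picked with earlier results of these data known.

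Poly-ubiquitin chains mark a protein for destruction, and the 26S proteasome reads this mark and degrades the protein. Its 20S core is a barrel of stacked alpha and beta rings with the proteolytic sites inside, and its 19S regulatory particle binds the chain, removes it and unfolds the substrate with a ring of ATPases. Other caps (PA28, PA200) can replace the 19S particle, and dedicated chaperones assemble the rings. Pluripotent stem cells are known for high proteasome activity, and proteasome genes are known to be transcribed together under the factor NFE2L1.

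RNA-seq was available for 4 independent bESC lines (A, C, D and E, genotype XX), each cultured in both conditions at 5% O2 and processed in 1 batch. The lines were derived from early or full blastocysts on MEF, which are irradiated CF1 mouse embryonic fibroblasts, in normoxia, then kept on MEF in low oxygen (passage 15 to 17, 4 libraries), and then moved to plates coated with vitronectin, the feeder-free condition (passage 20 to 22, 4 libraries). Feeder loss, matrix and passage number changed together and cannot be told apart. The sample titles give the same medium, NBFRA, for both conditions, whereas the methods describe Activin A as an addition for feeder-free culture. Each line is 1 derivation, so n = 4 counts lines. In the unpaired fit described below, p-values are set against the spread between lines within a condition, and the shared lines are ignored. In the paired fit they are set against the spread that remains once the level of each line is taken out. In bulk RNA, a change in the mix of cells and a change in RNA per cell cannot be told apart.

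Library totals ranged from 44268717 to 54296425 counts on MEF and reached 49671478 to 102351560 without feeders, the deepest library being the feeder-free one of line D. The 43 tested proteasome genes had between 701 and 55410 counts in a library, the lowest being PSMG3 on MEF in line A. All 7 pluripotency markers examined had at least 10079 counts in every library, with a summed level of 4671 to 5358 CPM (counts scaled to the library total) on MEF and 4082 to 4708 CPM in feeder-free conditions. Of 25 fibroblast markers, 20 had counts in every library and none was at 0 in all, and their summed level was 2215 to 2795 CPM on MEF and 1713 to 4075 CPM in feeder-free conditions. COL1A2, POSTN, FAP, PRRX1 and DPT were at 0 in at least 1 library. The pluripotency markers had a median log2 fold change (feeder-free over MEF) of -0.35, with 6 of 7 below 0 and 5 of 7 lower in every line. Of these, OTX2 was called lower in the paired fit described below, SALL4 (-0.58) passed on adjusted P-value in both edgeR fits (0.0426 unpaired, 0.00614 paired), and SOX2 and LIN28B (-0.35 each) passed in the paired one (0.0436 and 0.0456). Of the fibroblast markers, COL1A2 and PRRX1 fell and COL3A1 and POSTN rose in the paired fit, and 0 of 23 tested were called in the unpaired one (4 at an unadjusted P-value under 0.05). The part of feeder RNA or of these shifts in the proteasome values was not tested.

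As a set, proteasome genes lay slightly higher in feeder-free conditions. The median log2 fold change (feeder-free over MEF) of the 43 genes was 0.25, against 0.01 for all genes tested, and 34 of 43 (79.1%) lay above 0 against 50.6% of all genes. Single values ran from -0.43 for PSMD10 to 0.79 for PSMG3. The share of all counts that fell on the 45 genes was 0.582 to 0.671% on MEF and 0.669 to 0.751% in feeder-free conditions, and the ratio of their summed levels, feeder-free to MEF, was 1.17 in line A, 1.08 in line C, 1.20 in line D and 1.07 in line E. The groups overlapped, since feeder-free line C was below MEF line E, while every line had a ratio above 1.

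**Figure D1:**
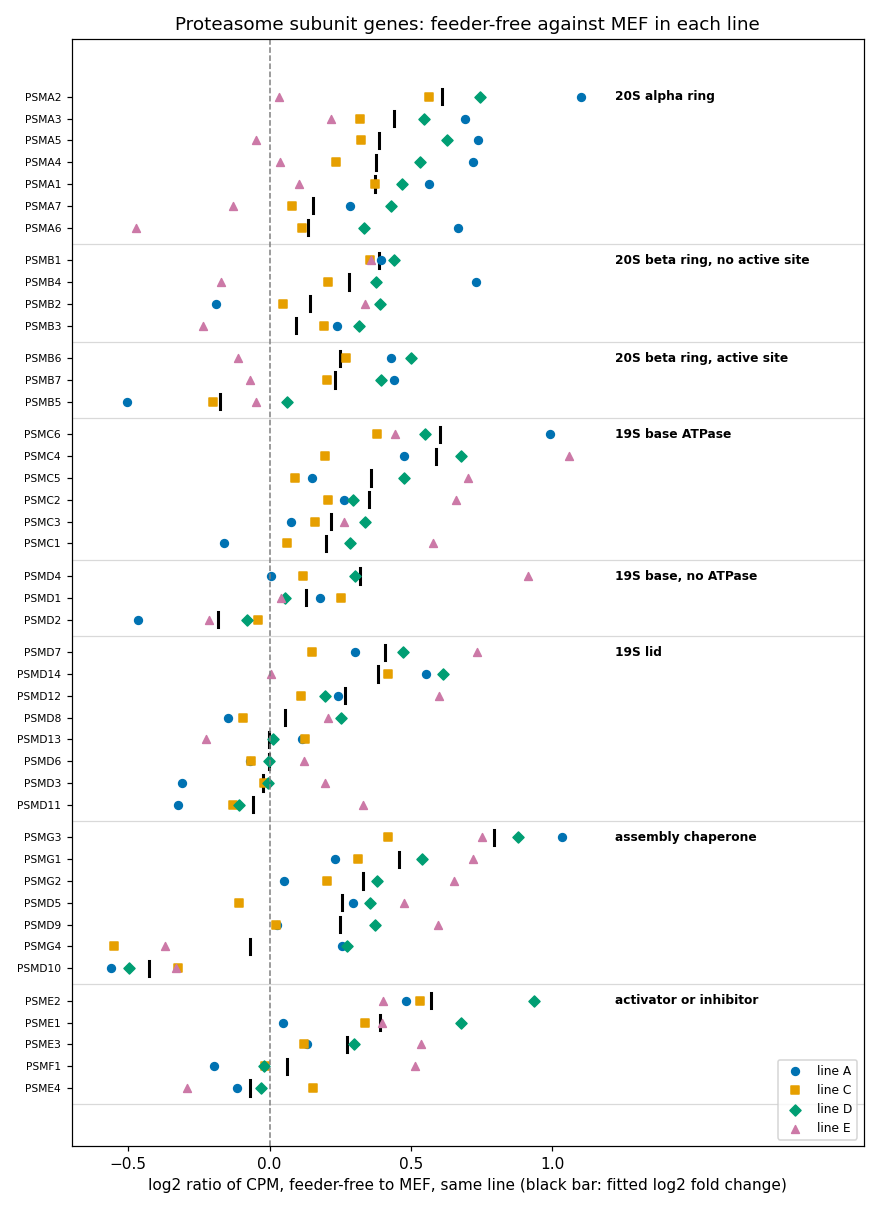
Log2 ratio of feeder-free to MEF level for each of the 43 tested proteasome genes (rows, grouped by role), with 1 point per line (A, C, D, E) and a black bar for the fitted log2 fold change. Most points lie right of 0, the fitted values run from -0.43 to 0.79, and line E (triangles) lies lowest in the alpha ring and highest for 4 of the 6 ATPases.

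The test without pairing (edgeR's quasi-likelihood test, 4 libraries against 4, adjusted P-value under 0.05 and at least 1.5-fold) called 1 proteasome gene higher, PSMG3, and 0 lower. Across all genes it called 0.724% higher and 1.00% lower. An unadjusted P-value under 0.05, in either direction, was found for 12 of the 43 proteasome genes and for 3400 of all 15744 genes. DESeq2 without pairing called 3 higher (PSMC4, PSMC6 and PSMG3) and 0 lower, and 695 and 517 of all genes. When the line was added as a term to the edgeR fit, which pairs the libraries of each line, 5 genes were called higher (PSMA2, PSMC4, PSMC6, PSME2 and PSMG3) and 0 lower. The background was 5.52% higher and 4.53% lower. By adjusted P-value alone, the paired fit gave 10 genes higher (PSMA1, PSMA2, PSMA3, PSMB1, PSMC4, PSMC6, PSMD7, PSME2, PSMG1 and PSMG3) and 1 lower (PSMD10), where 7.67% and 8.12% of all genes passed.

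For 6 genes (PSMB1, PSMC4, PSMC6, PSME2, PSMG2 and PSMG3) all 4 feeder-free libraries lay above all 4 MEF libraries, as did 6.21% of all genes. PSMD10 alone had all feeder-free libraries below, as did 8.36% of all genes. In every one of the 4 lines, 22 of the 43 genes were higher without feeders, where the background was 20.2%, and 2 (PSMD2 and PSMD10) were lower, where it was 20.7%.

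**Figure D2:**
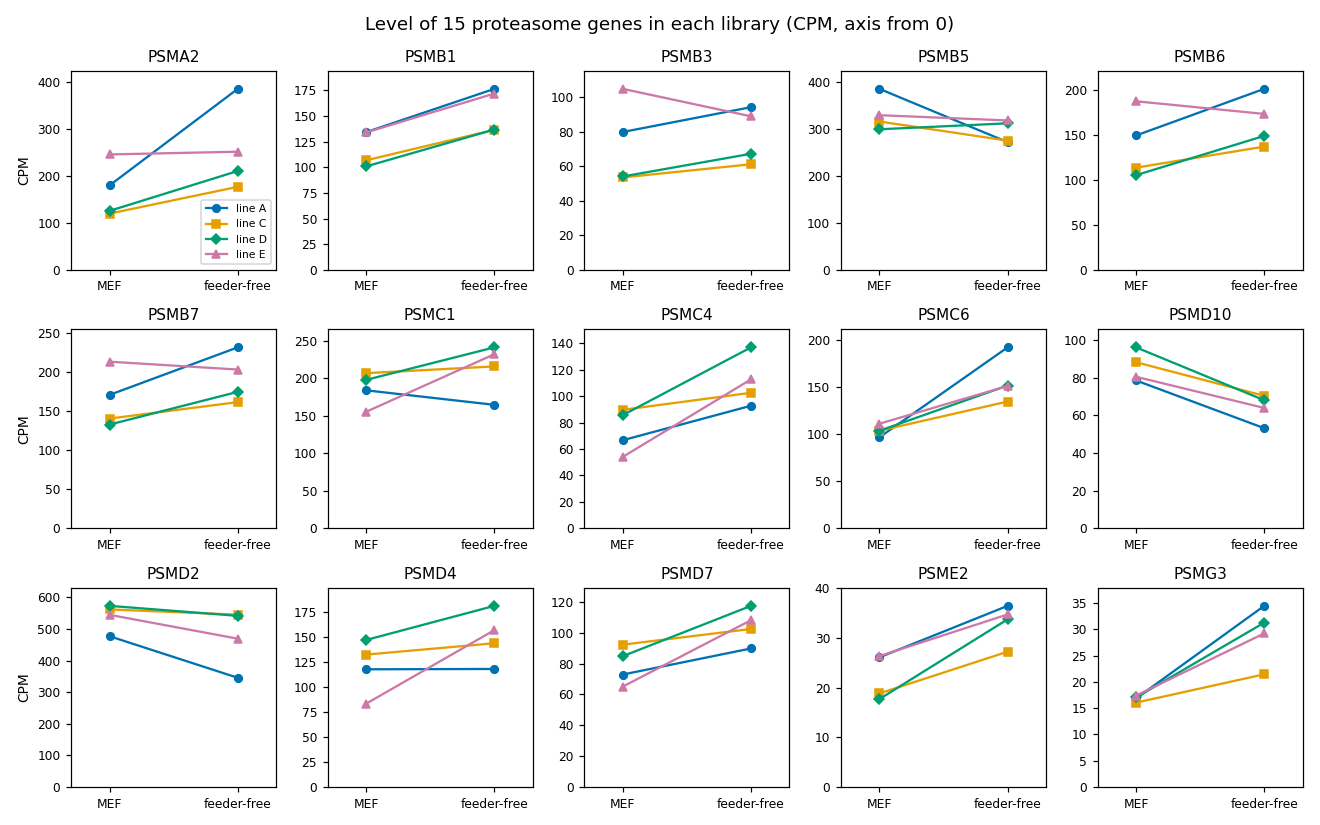
Level in CPM (vertical axis, from 0) of 15 proteasome genes on MEF and in feeder-free conditions, with a line joining the 2 libraries of each bESC line. PSMG3, PSMC6, PSMC4, PSME2 and PSMB1 separate the conditions in every line, PSMD10 separates them downwards, and PSMA2, PSMB3, PSMB6 and PSMB7 have overlapping groups with line E nearly level or lower.

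The alpha ring closes the barrel and gates entry to it, and its 7 tested genes (PSMA1 to PSMA7) all had a log2 fold change above 0, from 0.14 to 0.61 (median 0.38). PSMA2 (chromosome 4, 78127061 to 78137710 on ARS-UCD2.0, the build of all positions given) measured 180, 120, 126 and 246 CPM on MEF in lines A, C, D and E, and 386, 177, 211 and 252 CPM in feeder-free conditions. Line A rose most, line E barely differed between conditions, and the groups overlapped. Its means were 168 ± 58.7 and 256 ± 91.5 CPM (SD, n = 4), with a log2 fold change of 0.61 (SE 0.29, adjusted P = 0.269, edgeR) and, with the lines paired, 0.61 (SE 0.16, adjusted P = 0.0297). The other 6 alpha genes had fold changes between 0.14 (PSMA6) and 0.44 (PSMA3), none passed the unpaired test (lowest adjusted P = 0.200, edgeR), and PSMA1 and PSMA3 passed on adjusted P-value in the paired fit. PSMA8, the alpha subunit known from testis, had 0 counts in 7 libraries and 8 in feeder-free line E, and was not tested.

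The beta subunits without an active site (PSMB1 to PSMB4) shape the inner rings. Their 4 fold changes were all above 0, with a median of 0.21. PSMB1 (chromosome 9, 104070552 to 104088278) had 134, 107, 101 and 134 CPM on MEF and 176, 137, 137 and 172 CPM in feeder-free conditions, in the same order of lines. Every feeder-free library lay above every MEF library, and the lines were much alike, with log2 ratios of 0.39, 0.35, 0.44 and 0.36. The fitted log2 fold change was 0.39 (SE 0.15, adjusted P = 0.172, edgeR) unpaired and 0.39 (SE 0.10, adjusted P = 0.0282) paired, which is under the 1.5-fold threshold.

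PSMB3 (chromosome 19, 39344060 to 39353531, overlapping PCGF2) varied more between lines. It measured 79.9, 53.5, 54.1 and 105 CPM on MEF and 94.3, 61.2, 67.3 and 89.0 CPM in feeder-free conditions, so that lines A and E were above lines C and D in both conditions and the groups overlapped. The log2 fold change was 0.09 (SE 0.24, adjusted P = 0.875, edgeR) unpaired and 0.13 (adjusted P = 0.515) paired, and the sign of the unpaired value turned when 1 of 3 libraries was left out (-0.031 without MEF line C, -0.027 without MEF line D, -0.012 without feeder-free line A). PSMB2 and PSMB4 had fold changes of 0.14 and 0.28, and neither passed either test.

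The proteolytic sites sit on PSMB5 (chymotrypsin-like activity), PSMB6 (caspase-like) and PSMB7 (trypsin-like), and none of the 3 passed either test. PSMB5 (chromosome 10, 21821507 to 21827026) was the only one of the 14 tested core genes with a fold change below 0. Its level was 385, 316, 299 and 329 CPM on MEF and 272, 275, 312 and 318 CPM in feeder-free conditions, lower in lines A, C and E and a little higher in line D, with overlapping groups. The log2 fold change was -0.18 (95% interval -0.46 to 0.10, adjusted P = 0.463 unpaired and 0.343 paired, edgeR).

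PSMB6 (chromosome 19, 26564855 to 26567068) had 149, 113, 105 and 187 CPM on MEF and 201, 137, 149 and 173 CPM in feeder-free conditions, with a log2 fold change of 0.25 (95% interval -0.21 to 0.71, adjusted P = 0.529 unpaired and 0.161 paired, edgeR). PSMB7 (chromosome 11, 95402190 to 95459424) had 171, 140, 133 and 213 CPM on MEF and 232, 162, 175 and 203 CPM in feeder-free conditions, with a log2 fold change of 0.23 (95% interval -0.18 to 0.64, adjusted P = 0.510 unpaired and 0.183 paired, edgeR). Both were higher in lines A, C and D and lower in line E, and their groups overlapped. PSMB11, the thymus-specific active subunit, had 0 to 12 counts in a library and was not tested, and its annotated span overlaps that of PSMB5.

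The ATPases (PSMC1 to PSMC6) form the ring that unfolds substrates and opens the core. All 6 log2 fold changes were above 0, from 0.20 to 0.60 (median 0.36), and 5 of the 6 genes were higher without feeders in every line. PSMC6 (chromosome 10, 11462174 to 11486213) measured 96.7, 104, 104 and 111 CPM on MEF and 192, 135, 152 and 151 CPM in feeder-free conditions. The MEF libraries were close together, all feeder-free libraries lay above them, and line A rose most. Means were 104 ± 5.89 and 158 ± 24.5 CPM (SD, n = 4), and the log2 fold change was 0.60 (SE 0.13, adjusted P = 0.0505, edgeR) unpaired and 0.59 (SE 0.13, adjusted P = 0.0146) paired.

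PSMC4 (chromosome 18, 49489069 to 49499930, overlapping LOC104974868) measured 66.7, 89.7, 85.7 and 54.1 CPM on MEF and 92.8, 103, 137 and 113 CPM in feeder-free conditions. The groups did not overlap, and line E went from the lowest MEF value to the second highest feeder-free value. Means were 74.0 ± 16.7 and 111 ± 19 CPM (SD, n = 4), with a log2 fold change of 0.59 (SE 0.19, adjusted P = 0.113, edgeR) unpaired and 0.60 (SE 0.14, adjusted P = 0.0225) paired. PSMC1 (chromosome 10, 101862203 to 101874844) had the smallest difference of the ATPases, with 184, 207, 198 and 155 CPM on MEF and 164, 216, 241 and 232 CPM in feeder-free conditions. It was lower in line A and higher in the other lines, the groups overlapped, and the log2 fold change was 0.20 (SE 0.15, adjusted P = 0.499 unpaired and 0.345 paired, edgeR). PSMC2, PSMC3 and PSMC5 lay between 0.22 and 0.36, and each was higher in all 4 lines without passing either test.

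PSMD1 and PSMD2, the scaffolds of the base, and PSMD4, a ubiquitin receptor, gave a median of 0.13. PSMD2 (chromosome 1, 82878892 to 82888239) measured 477, 562, 573 and 545 CPM on MEF and 345, 545, 542 and 469 CPM in feeder-free conditions, lower in every line and most so in line A, with overlapping groups. Its log2 fold change was -0.18 (SE 0.16, adjusted P = 0.573, edgeR), and -0.20 (SE 0.11, adjusted P = 0.235) paired. PSMD4 (chromosome 3, 19556540 to 19565662) measured 117, 132, 147 and 83.2 CPM on MEF and 118, 144, 181 and 157 CPM in feeder-free conditions. Line A was level, line E went from the lowest value of all to the second of the feeder-free ones, and the groups overlapped (log2 fold change 0.32, SE 0.19, adjusted P = 0.384 unpaired and 0.157 paired, edgeR).

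The lid carries PSMD14, the enzyme that cuts the ubiquitin chain from the substrate, and structural partners. Its 8 genes had a median of 0.03, and 4 lay above 0 and 4 below. PSMD7 (chromosome 18, 36981892 to 36989873), the partner of PSMD14, had 72.9, 92.2, 84.8 and 65.0 CPM on MEF and 89.8, 102, 117 and 108 CPM in feeder-free conditions. It was higher in every line, and only feeder-free line A fell below the top MEF value. The log2 fold change was 0.41 (SE 0.14, adjusted P = 0.135, edgeR) unpaired and 0.41 (SE 0.12, adjusted P = 0.0469) paired. PSMD14 itself had a log2 fold change of 0.38 (adjusted P = 0.208 unpaired and 0.0568 paired, edgeR) and was higher in all 4 lines, by 0.55, 0.42, 0.61 and 0.01 on the log2 scale. The structural lid genes PSMD3, PSMD6, PSMD8, PSMD11 and PSMD13 lay between -0.06 and 0.06, and PSMD12 lay at 0.27.

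Assembly chaperones gave both ends of the range. PSMG3 (chromosome 25, 41386254 to 41387989), which helps to build the alpha ring, measured 16.8, 16.0, 17.0 and 17.4 CPM on MEF and 34.5, 21.4, 31.3 and 29.2 CPM in feeder-free conditions. The MEF values were nearly equal, every feeder-free value was higher, and line C rose least. Means were 16.8 ± 0.566 and 29.1 ± 5.55 CPM (SD, n = 4), with a log2 fold change of 0.79 (SE 0.16, adjusted P = 0.0456, edgeR) and, paired, 0.77 (SE 0.14, adjusted P = 0.00797). The unpaired call was lost when any single library of the 8 was left out, with adjusted P-values of 0.0564 (without feeder-free line A) to 0.130 (without feeder-free line E) in edgeR, while log2 fold changes stayed between 0.70 and 0.91. Those fits called 0 or 1 of all genes higher, apart from 259 without feeder-free line A. In the paired fit the call of PSMG3 held without each of the 4 lines, the highest adjusted P-value being 0.0454 without line D.

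PSMD10 (gankyrin, chromosome X, 56712973 to 56722462), a chaperone of the base, measured 78.6, 88.3, 96.2 and 80.6 CPM on MEF and 53.3, 70.5, 68.1 and 64.0 CPM in feeder-free conditions. It was lower in all 4 lines and the groups did not overlap. The means were 86.0 ± 8.03 and 64.0 ± 7.63 CPM (SD, n = 4), with a log2 fold change of -0.43 (SE 0.13, adjusted P = 0.0942, edgeR) and, paired, -0.43 (SE 0.11, adjusted P = 0.0265), under the 1.5-fold threshold. Leaving out line A, C or D from the paired fit raised the adjusted P-value to 0.0610, 0.0899 and 0.153. The base chaperones PSMD5 and PSMD9 lay at 0.25 and 0.25, and the core chaperones PSMG1 and PSMG2 at 0.46 and 0.33, none of which passed the unpaired test. PSMG4, the partner of PSMG3, lay at -0.07 and differed between lines, with 102, 48.2, 40.7 and 122 CPM on MEF and 121, 32.9, 49.2 and 94.0 CPM in feeder-free conditions.

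Among caps and inhibitor, PSME1 and PSME2 form the PA28 cap, PSME3 is its nuclear form, PSME4 is PA200 and PSMF1 is an inhibitor. PSME2 (chromosome 10, 21004530 to 21007790) measured 26.1, 18.8, 17.7 and 26.4 CPM on MEF and 36.5, 27.3, 33.8 and 34.8 CPM in feeder-free conditions. All feeder-free libraries lay above all MEF libraries, and line D rose most. The log2 fold change was 0.57 (SE 0.17, adjusted P = 0.103, edgeR) unpaired and 0.59 (SE 0.13, adjusted P = 0.0181) paired. PSME1 and PSME3 lay at 0.39 and 0.27, higher in all 4 lines without passing either test, and PSME4 and PSMF1 lay at -0.07 and 0.06.

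The 4 genes called there beside PSMG3 each lost the call without some line. PSMA2 (adjusted P = 0.116) and PSME2 (adjusted P = 0.123) failed without line D, as did PSMC4 (adjusted P = 0.0946) and PSMC6 (adjusted P = 0.0605), all in edgeR's quasi-likelihood test. PSMA2 also failed without line A (0.0814) or C (0.0955), and PSME2 without line C (0.0676). PSMC4 without line E (0.46 on the log2 scale) and PSMC6 without line A (0.46) fell under the 1.5-fold threshold.

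The feeder-free to MEF ratios of the lines differed in which part of the particle moved. Each ratio rests on a single library per condition, so differences between lines and between single libraries cannot be told apart. The median log2 ratio of the alpha ring was 0.69 in line A, 0.32 in line C, 0.53 in line D and 0.03 in line E, while that of the ATPases was 0.21, 0.18, 0.41 and 0.62. Line E thus had the smallest alpha ring ratio and the largest ATPase ratio. The medians over all 43 genes hide this, at 0.24, 0.15, 0.37 and 0.22.

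The levels showed the same split. Summed over the alpha ring, MEF libraries of lines A, C, D and E had 1278, 950, 928 and 1650 CPM, and feeder-free libraries had 1977, 1139, 1330 and 1583 CPM. For the ATPases the sums were 753, 886, 868 and 735 CPM on MEF and 898, 992, 1149 and 1081 CPM in feeder-free conditions. The ratio of the alpha sum to the ATPase sum was 1.70, 1.07, 1.07 and 2.25 on MEF and 2.20, 1.15, 1.16 and 1.47 in feeder-free conditions, so that lines C and D stayed close to each other and line E had the highest ratio on MEF. These sums mix genes of different transcript length and compare libraries, not genes.

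**Figure D3:**
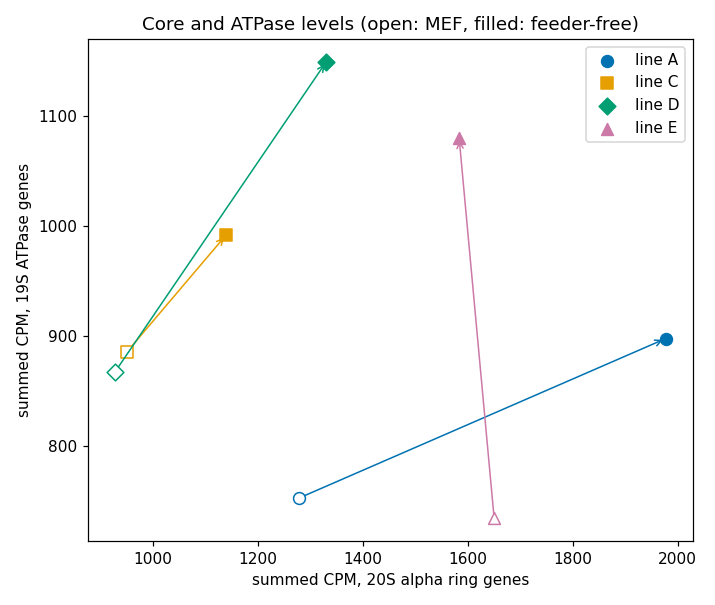
Summed CPM of the 7 tested alpha ring genes and PSMA8 (horizontal axis) against that of the 6 ATPase genes (vertical axis), open symbols on MEF and filled symbols in feeder-free conditions, with an arrow for each line. Axes do not start at 0. Line A moved mainly to the right (1278 to 1977 CPM), line E straight up (735 to 1081 CPM), and lines C and D moved on both axes.

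Line order was shared within the alpha ring. Line E had the highest MEF level for 7 of its 7 genes, line A the highest feeder-free level for 7 of 7 and line C the lowest feeder-free level for 7 of 7, where line E was highest on MEF for 30.2% of all genes and line A highest in feeder-free conditions for 33.6%. Line E had the lowest feeder-free to MEF ratio for 7 of 7 alpha genes (30.5% of all genes) and the highest ratio for 4 of 6 ATPases (32.8% of all genes). Some other lists shared this. The ratio of line E was highest for 5 of 8 lid genes, 7 of 10 stress chaperones and 38 of 77 mitochondrial ribosomal genes. It was highest for 2 of 8 CCT chaperonin genes, 3 of 9 COP9 signalosome genes and 8 of 80 cytosolic ribosomal genes, and lowest for 41 of those 80. These orders were looked at after the values were seen and carry no test. Genes of 1 complex in 1 library are not independent of each other.

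A difference between lines was tested with the line term of the paired edgeR fit, also chosen after the values were seen. The term covers a level shared by both conditions of a line, not a difference in the ratio. It passed at adjusted P-value under 0.05 for 4 of 43 proteasome genes, PSMA2 (0.0477), PSMA6 (0.0477), PSMB3 (0.0328) and PSMG4 (0.00398), against 11.8% of all genes. No gene of the 19S particle was among the 4. PSMA6 measured 145, 103, 96.3 and 221 CPM on MEF and 229, 111, 121 and 159 CPM in feeder-free conditions, higher in lines A and E than in lines C and D in both conditions.

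**Figure D4:**
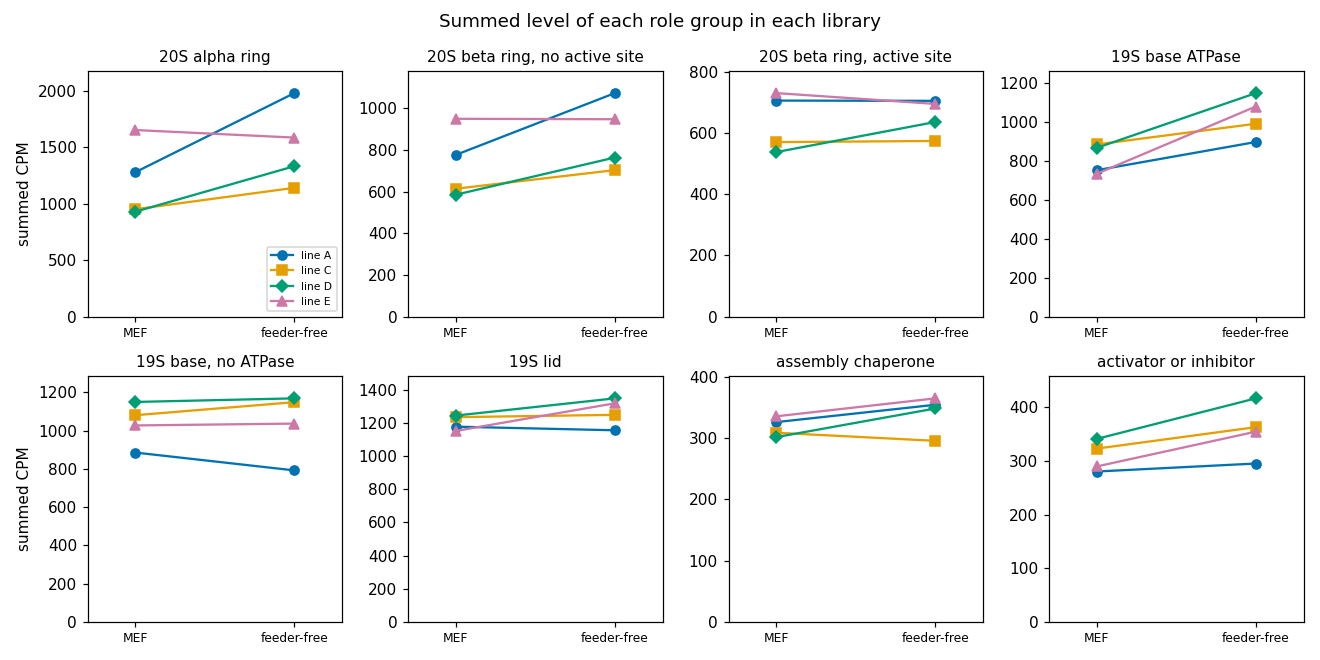
Summed CPM of each role group (panels, vertical axes from 0) on MEF and in feeder-free conditions, with a line joining the 2 libraries of each bESC line. The alpha ring and the beta subunits without an active site have lines A and E on top on MEF, the ATPase sums are higher without feeders in all 4 lines, and the lid sums differ by ratios of only 0.982 to 1.14.

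Cytosolic ribosomal protein genes, which have no role in the proteasome, had a line order related to that of the alpha ring. Their summed level was 104795, 62455, 53694 and 95725 CPM on MEF and 127355, 60571, 59649 and 91528 CPM in feeder-free conditions, so that lines A and E lay above lines C and D in both. The line term passed for 72 of their 80 tested genes. Whether one source of variation between lines sets both was not tested.

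Other complexes were set beside the proteasome. The median log2 fold change was 0.15 for the 80 cytosolic ribosomal protein genes, 0.29 for 77 mitochondrial ones, 0.08 for 9 genes of the COP9 signalosome, which is built like the lid, and 0.06 for 8 genes of the CCT chaperonin. Of the mitochondrial ribosomal genes 68 of 77 (88.3%) lay above 0 and 3 were called higher in the unpaired fit (7 paired), and of the cytosolic ones 67 of 80 lay above 0 and 1 was called (3 paired), so the mitochondrial list had a median as high as the proteasome. The paired calls among the cytosolic genes were RPS27L, RPS4Y1 and RPL7L1. All 3 are paralogs (related copies) of ribosomal protein genes, which the list takes in because it was drawn by symbol. Among the mitochondrial genes the paired calls were MRPS6, MRPL32, MRPL42, MRPS18C, MRPL55, MRPL16 and MRPL20. Higher without feeders in all 4 lines were 46 of the 77 mitochondrial genes, 14 of the 80 cytosolic ones and 22 of the 43 proteasome genes (20.2% of all genes). All 4 feeder-free libraries lay above all 4 MEF libraries for 17, 2 and 6 of them (6.21% of all genes). Differences between the lists were not tested. No COP9 or CCT gene was called higher or lower in either edgeR fit, and none of them had an unadjusted P-value under 0.05 in the unpaired one.

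**Figure D5:**
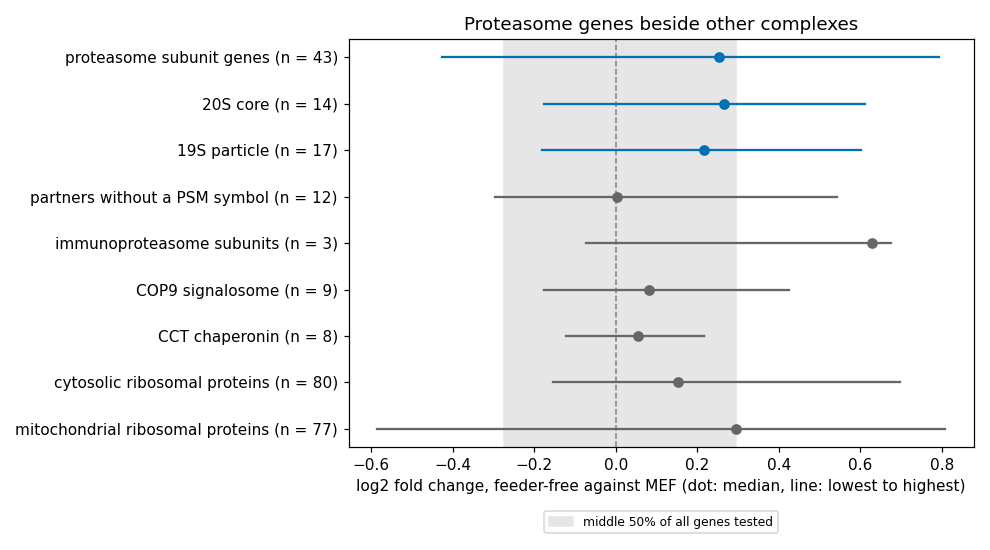
Median (dot) and lowest to highest value (line) of the log2 fold change, feeder-free over MEF, for proteasome genes and other lists, with the number of tested genes. The grey band is the middle 50% of all genes tested (-0.27 to 0.29), and the medians of the proteasome (0.25) and its 20S core (0.26) lie inside it while that of the mitochondrial ribosomal proteins (0.29) lies at its upper edge.

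Partners of the proteasome without a PSM symbol (ADRM1, SEM1, POMP, USP14, UCHL5 and others) had a median of 0.00, with 6 of 12 genes above 0 and 0 called in either edgeR fit, where 4 of 12 had an unadjusted P-value under 0.05 in the unpaired one. POMP, the chaperone that carries the beta ring into place, measured 241, 163, 157 and 308 CPM on MEF and 391, 196, 196 and 287 CPM in feeder-free conditions. Lines A and E were again the highest in both, and the log2 fold change was 0.30 (adjusted P = 0.597, edgeR).

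The immunoproteasome subunits replace PSMB5, PSMB6 and PSMB7 in cells exposed to interferon. PSMB8 measured 7.78, 24.8, 6.28 and 31.3 CPM on MEF and 8.01, 27.3, 11.4 and 20.0 CPM in feeder-free conditions. PSMB9 measured 0.984, 2.67, 1.67 and 3.35 CPM on MEF and 2.13, 4.14, 3.87 and 3.73 CPM in feeder-free conditions. PSMB10, which overlaps LCAT, measured 8.23, 6.01, 6.79 and 8.13 CPM on MEF and 9.83, 6.46, 17.0 and 11.7 CPM in feeder-free conditions. The groups overlapped for each gene, PSMB9 and PSMB10 were higher in 4 of 4 lines, and with log2 fold changes of -0.07, 0.68 and 0.63 (adjusted P = 0.961, 0.375 and 0.235, edgeR) none was called, nor in the paired fit (lowest adjusted P = 0.0866).

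Genes of interferon response and antigen processing, to which PA28 and the immunoproteasome also belong, had a median of 0.91 over 9 genes, with 0 called in the unpaired edgeR fit, where 3 of 9 had an unadjusted P-value under 0.05. The paired fit called 4 of them higher, where 5.52% of all genes were, and 0 lower. IRF1, a transcription factor of the interferon response that overlaps RAD50 in the annotation, measured 0.840, 2.03, 6.36 and 0.612 CPM on MEF and 4.53, 17.5, 42.9 and 16.0 CPM in feeder-free conditions. It rose in all 4 lines, with a log2 fold change of 3.20 (SE 0.32, adjusted P = 0.000763, edgeR) paired and 3.04 (adjusted P = 0.0838) unpaired. TAP2, a peptide transporter, B2M, the light chain of MHC class I, and TAPBP, its loading factor, rose by 1.69, 1.34 and 0.69 in the paired fit (adjusted P = 0.00579, 0.000956 and 0.0156, edgeR) and did not pass the unpaired one (0.124, 0.361 and 0.0888).

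The transcription list held the factors and helpers known to act on proteasome promoters (NFE2L1, NFE2L2, DDI2, NGLY1, small MAF proteins, BACH1 and NFY subunits), with a median of 0.01 over 11 genes. NFE2L1, which overlaps CBX1, measured 162, 161, 164 and 140 CPM on MEF and 130, 159, 163 and 109 CPM in feeder-free conditions. It was lower in 4 of 4 lines, hardly so in lines C and D, and the log2 fold change was -0.16 (adjusted P = 0.582, edgeR). In the paired edgeR fit MAFF, a small MAF partner, rose (0.90, adjusted P = 0.0156). NFE2L2 lay at 0.54 (adjusted P = 0.0127) and BACH1, a repressor, at -0.39 (adjusted P = 0.0482), both under 1.5-fold. These 2 higher and 1 lower of 11 stand against 7.67% and 8.12% of all genes. None of the 3 passed the unpaired edgeR fit (adjusted P = 0.0937, 0.179 and 0.0888). In every line 3 of the 11 genes were higher and 5 lower, where the background was 20.2% and 20.7%. The summed level of the list was lower without feeders in each line, at ratios of 0.82 to 0.97.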

How the data were processed

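RNA-seq counts of 8 libraries (4 bESC lines on MEF and in feeder-free conditions) were used. The authors deposited raw counts per gene, made after Trimmomatic trimming, STAR alignment to the cow genome ARS-UCD2.0, removal of optical duplicates and of mapping qualities under 30, with featureCounts (Subread 1.6.2 in the submitters' processing notes). They also describe taking out, for MEF libraries, bovine-mapping reads found in a sequenced feeder-only sample. Whether the table is before or after that step is not given in the sources used here, and its effect was not tested. Strand and annotation release are not given in the sources used here, and 14 of 45 proteasome genes overlap another annotated gene, so shared reads cannot be told apart there. Near-identical copies elsewhere were not examined. RNA extraction is given as Trizol in the labels and as a column kit in the methods.

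Here, genes were filtered with filterByExpr, scaled by TMM and tested with edgeR 4.0.16 (R 4.3.3) by the quasi-likelihood test, Benjamini-Hochberg adjusted over 15744 genes. CPM are TMM-scaled without a prior count, SE is the fold change over the root of F, and intervals are at 95%. A gene was called at adjusted P-value under 0.05 and at least 1.5-fold. The paired fit adds the line. The same line letter marks the same cell line, and deviations from the condition means correlated between the 2 libraries of a line (r = 0.594, 0.570, 0.682 and 0.426 for A, C, D and E) and from -0.538 to 0.260 between lines. No pair of libraries of a condition agreed within sampling noise (chi-square per degree of freedom at least 40.8 over 12 pairs). On simulated counts for this comparison (15539 genes, 200 changed) the unpaired fit recovered 53.0% of 2-fold and 100% of 4-fold changes with 0.649% of calls false, and the paired fit 85.0% and 100% with 5.61% false. The simulation assumed line effects of a set size, independent between genes, and the same change in every line. Changes were placed only in genes above a floor of counts. Changes under 2-fold, where all fitted proteasome values lay, were not simulated.

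Members, lists and roles were chosen with earlier results of these data known. Per-library values are given for PSMB5, PSMB6, PSMB7, each gene called in either fit and the highest and lowest fold change of each role, kept to the 15 with the smallest paired adjusted P-value. PSMA6, PSMG4 and other genes with library values were chosen after their values were seen. Alternatives were DESeq2 1.42.0, limma-voom (limma 3.58.1), scalings, filters, thresholds, gene-span offsets and leaving out libraries or lines. The line-term test and line orders were added after seeing the data. A search of promoters and comparison of levels per transcript length were not run here. Positions are from RefSeq on ARS-UCD2.0, where 30268 symbols matched.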

Additional observations from a re-analysis of the deposited data

Results flagged for a closer look

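Of 48 groups of 4 libraries examined for a library far from the others (the values of named genes and sums), 0 passed Dixon's 95% criterion, where chance gives about 2.4.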

How the results depend on the processing

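The median log2 fold change of the proteasome genes (0.25) was above 0 under every alternative run, from 0.21 with gene-span offsets to 0.34 without line C in the paired fit. Leaving out a library or line gave 0.22 to 0.34. The number called higher (1) was 5 with the replicate block (lines paired), also by DESeq2 and limma-voom with the replicate block, 10 with the replicate block and no fold threshold, 3 by DESeq2, 2 by the likelihood ratio test or with at least 10 counts in every library, and 0 without a filter, by limma-voom, at 2-fold or with gene-span offsets (span, as proteasome genes have a median span of 12.6 kb against 22.9 kb). Gene-span offsets with the replicate block left 1, PSMG3, and PSMC4, PSMC6 and PSME2 kept an adjusted P-value under 0.05. The number called lower (0) was 1 with the replicate block and no fold threshold. Leaving out single libraries or lines gave 0 to 4 genes higher and 0 lower. PSMB3 turned to -0.010 with gene-span offsets, and leaving out libraries or lines gave it -0.031 (without MEF line C) to 0.32, also below 0 without MEF line D (-0.027) and without feeder-free line A (-0.012).

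Over all genes, 114 higher and 158 lower became 869 and 713 with the replicate block, 73 and 97 without a filter, 448 and 389 by the likelihood ratio test, 695 and 517 by DESeq2, 1139 and 840 by DESeq2 with the replicate block, 999 and 791 by limma-voom with the replicate block, 1207 and 1279 with the replicate block and no fold threshold, 70 and 48 at 2-fold, and 745 and 772 with gene-span offsets and the replicate block. Gene-span offsets alone gave 70 higher, a minimum of 10 counts 199 higher and no scaling 91 lower. Leaving out feeder-free line A alone gave 259 higher and 231 lower, and leaving out any other single library gave 0 or 1 higher and 0 to 5 lower. Leaving out line A, C, D or E with the replicate block gave 918, 561, 376 and 662 higher and 733, 496, 366 and 497 lower. The cause of these changes was not tested. The 4 lines limit the precision. The part of counting error was not tested, also for PSMG3 (701 to 883 counts on MEF), which held the lowest count of the tested members.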

Other observations

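For ubiquitin and its activating enzymes, the steps before the proteasome, the median over 6 genes was 0.01 on the log2 scale. UBA1, the main activating enzyme, measured 488, 636, 670 and 614 CPM on MEF and 354, 516, 511 and 458 CPM in feeder-free conditions in lines A, C, D and E, lower in every line (paired -0.40, adjusted P = 0.0255, edgeR, under 1.5-fold). The shuttles and the VCP unfoldase group had a median of 0.09 over 11 genes. UBQLN1, a shuttle, measured 293, 306, 317 and 340 CPM on MEF and 228, 263, 244 and 241 CPM in feeder-free conditions, with no overlap (paired -0.36, adjusted P = 0.0377, edgeR). UBA1 (adjusted P = 0.202) and UBQLN1 (adjusted P = 0.0965) did not pass the unpaired edgeR fit. Each was the only gene of its list to pass lower on paired adjusted P-value, where 8.12% of all genes did.

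Stress chaperones had a median of 0.16 over 10 genes. HSPH1, a co-chaperone of HSP70, measured 65.8, 143, 148 and 76.8 CPM on MEF and 116, 178, 243 and 170 CPM in feeder-free conditions and rose in the paired fit (0.75, adjusted P = 0.00844, edgeR). HSPA8, the constitutive HSP70, lay at 0.44 in that fit (adjusted P = 0.0240, edgeR, under 1.5-fold). Neither passed the unpaired edgeR fit (adjusted P = 0.224 and 0.286), and the groups overlapped for both. In the paired fit 1 of the 10 genes was called higher, where 5.52% of all genes were. By adjusted P-value alone 2 of the 10 passed higher, where 7.67% of all genes did.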
